A study of Rattus norvegicus with 12 samples.

Results

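Exosomes were added to ultrasound treatment of the crushed rat nerve in the comparison described here, which set the iPSC-Exos + LIPUS group against the LIPUS group. The libraries were taken by their labels, 3 of each group, and made up 6 of the 12 RNA-seq libraries of the series. All 12 came from SD rats whose sciatic nerve had been crushed, and all carried the same batch in the labels. The LIPUS group received low intensity pulsed ultrasound at 250 mW/cm² and 1 MHz with a 20% duty cycle, on 1 side, for 5 minutes a day on 5 days a week over 4 weeks. The iPSC-Exos + LIPUS group received the same ultrasound and, in addition, 10 µL of exosomes from induced pluripotent stem cells (iPSC-Exosomes in the labels) at 100 µg/mL. The exosomes were therefore the only labelled difference between these groups, and the question was which genes differed when they were added. By the labels, the Control group had the crush alone, and the iPSC-Exos group had the crush and 10 µL of exosomes without ultrasound. The study's methods give its comparison group without exosomes an injection of PBS at the same sites, whereas the labels name no injection for Control or LIPUS, so whether the LIPUS rats were injected is not known. The labels give 103, 104 and 105 µg/mL for iPSC-Exos replicates 2, 3 and 5. The study, in contrast, states that it chose 100 µg/mL for its work in animals and did not investigate different doses. Whether the labels hold an error of entry is not known, and no comparison was made by concentration. The study's methods describe male rats aged 5 weeks for the experiment without ultrasound. They do not describe the groups with ultrasound, for which the labels give no age, sex or sampling day. The sampling day that the methods give for RNA-seq falls before the end of the ultrasound course in the labels, so the groups with and without ultrasound may have been sampled on different days after the crush. The labels also do not say that the replicates were separate rats, so the p-values measure only the spread between these samples, which may be technical. The labels name the brain as the tissue while their protocol names the sciatic nerve.

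Exosomes are small membrane vesicles that cells release and that carry RNA, lipids and proteins to other cells. Low intensity pulsed ultrasound delivers short bursts of mechanical energy to a tissue and is used to aid the healing of bone and soft tissue. After a crush, axons beyond the injury break down, Schwann cells leave their myelinating state and help to clear debris together with macrophages, and axons then regrow along the Schwann cell columns. In RNA from whole tissue, fewer cells of a type and less RNA per cell cannot be told apart.

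The deposited table gave read counts for 30562 rat Ensembl gene IDs and paired none of them with a gene name. The reference table at hand held 47357 gene names, and 0 of the IDs could be matched to it. Genes are therefore described by their number, level and direction, with a pair of IDs named in each direction, and the tissue could not be checked by marker genes. The total was 1316673, 1542634 and 1403599 counts in iPSC-Exos + LIPUS replicates 1, 2 and 3, and 1251715, 1499813 and 1410294 counts in LIPUS replicates 2, 6 and 7. Both groups were thus sequenced to a like depth. Levels are given as CPM, which is a gene's count relative to the library's total over the tested genes, adjusted by edgeR's TMM factor. Relative to the plain total, 3 counts corresponded to between 1.94 and 2.40 CPM in these libraries, so that weakly expressed genes were out of reach. From 7698 to 8704 genes were counted at least once per library. A count in any of the 12 libraries was found for 14298 IDs, and in any of the 6 for 12638. Of these, 4640 had enough counts to be tested, and they held between 99.1% and 99.4% of the counts of the 6 libraries. A single gene stood out by its share of the counts. It held 9.28% of iPSC-Exos + LIPUS replicate 2, against 1.94% and 2.71% of replicates 1 and 3 and 2.25%, 0.391% and 0.539% of LIPUS replicates 2, 6 and 7. The same gene held 32.5% of Control replicate 9, which is in neither of these groups but is part of the fit of all 12 libraries.

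The whole profiles of both groups stood apart. In log2 CPM, computed with a prior count of 2, the Euclidean distance between a library with and a library without exosomes lay between 46.2 and 53.5 over 9 pairs, with a mean of 48.8. Within iPSC-Exos + LIPUS it lay between 41.1 and 45.6, and within LIPUS between 40.0 and 40.5. Every distance between the groups was larger than every distance within a group. Spearman's rho across genes, a description with no test, was between 0.945 and 0.956 between the groups, between 0.962 and 0.966 within iPSC-Exos + LIPUS and between 0.966 and 0.968 within LIPUS. With 3 libraries against 3, a permutation test could not reach the usual threshold, and none was run on these distances.

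The leading axis of variation separated the groups. Principal component 1 held 35.9% of the variance and placed iPSC-Exos + LIPUS replicates 1, 2 and 3 at 12.2, 15.9 and 23.8, and LIPUS replicates 2, 6 and 7 at -16.6, -13.5 and -21.9. Principal component 2 held 19.1% and spread the iPSC-Exos + LIPUS libraries, which lay at 25.0, 1.53 and -18.9, while the LIPUS libraries lay between -5.15 and -0.92. The profiles with exosomes were thus more widely scattered than those without.

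**Figure D1:**
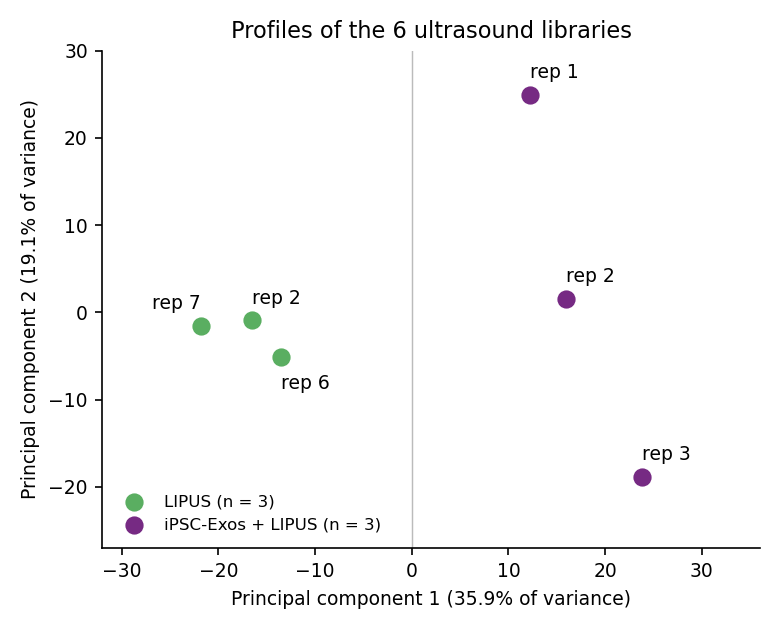
Principal components 1 and 2 of log2 CPM over the 4640 tested genes, with 1 point for each library of iPSC-Exos + LIPUS (n = 3) and LIPUS (n = 3). The groups lie on opposite sides of 0 on component 1 (35.9% of variance), and the iPSC-Exos + LIPUS libraries run from -18.9 to 25.0 on component 2 (19.1%).

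When exosomes were added to ultrasound, 104 of the 4640 tested genes (2.24%) differed at an adjusted p under 0.05 by the quasi-likelihood test of edgeR, adjusted by Benjamini-Hochberg. Of these, 63 (1.36%) were higher with exosomes and 41 (0.884%) were lower, so 60.6% of the differing genes were higher. The log2 fold changes of the higher genes ran from 0.73 to 4.15 with a median of 1.42, and 44 of the 63 were at least 1 and 17 at least 2. Those of the lower genes ran from -2.85 to -0.43 with a median of -0.81, and 11 of the 41 were at most -1 and 1 at most -2. The higher genes were less abundant, and at low levels only large changes were called, so these sizes are not compared between the directions. The median over all tested genes was 0.02 after TMM scaling, which itself sets the bulk of genes near 0, so an overall shift in RNA content was not tested. Without adjustment, 708 genes had a p under 0.05, where an even spread of p-values would give 232. At the threshold in the study's methods, an unadjusted p of at most 0.05 with a log2 fold change of 0.5 or more in size, 504 genes (10.9%) passed, 306 higher and 198 lower. With no filter on low counts, 869 of 14298 genes passed it, 528 higher and 341 lower. All 3 libraries of one group lay above all 3 of the other in 1188 of the tested genes (25.6%), in 435 of those 504 and in each of the 104. None of the 4640 tested genes was at 0 in all libraries of either group, so this held for the called genes as well. Each fold change thus rested on counts in both groups.

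The number of genes called depended on which libraries entered, on the tool and on the filter on low counts. Without iPSC-Exos + LIPUS replicate 1 it was 68 (48 higher, 20 lower), without replicate 2 it was 61 (44 and 17) and without replicate 3 it was 16 (14 and 2). Without LIPUS replicate 2 it was 15 (12 higher, 3 lower), without replicate 6 it was 25 (19 and 6) and without replicate 7 it was 16 (12 and 4). Without Control replicate 9 it was 217, with 110 higher and 107 lower, and these held all 104. The share of higher genes thus also depended on the libraries, from 50.7% without Control replicate 9 to 87.5% without iPSC-Exos + LIPUS replicate 3. DESeq2 called 186 genes, 99 higher and 87 lower, of which 103 were among the 104. With the largest gene left out of the counts it was 103. A fit of only the 6 libraries of both groups called 217 (115 higher, 102 lower). With no filter on low counts, 280 of 14298 genes were called (178 higher, 102 lower).

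**Figure D2:**
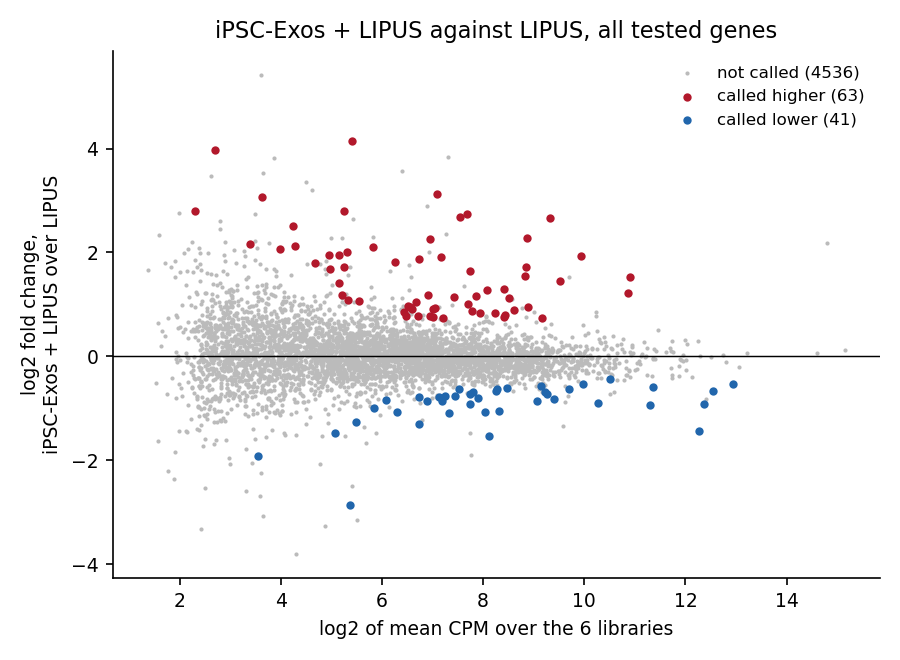
The log2 fold change of iPSC-Exos + LIPUS over LIPUS for each of the 4640 tested genes, against the log2 of its mean CPM over the 6 libraries. The 63 genes called higher (red) run up to 4.15 and the 41 called lower (blue) down to -2.85, and those called at high levels include smaller changes than those called at low levels.

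The higher and the lower genes lay at different levels of expression. The median of the mean CPM over the 12 libraries was 111 for the higher genes and 266 for the lower ones, against 54.5 for all tested genes. When the tested genes were ranked by this mean and divided into 3 groups of near equal size, the lowest (mean of 3.27 to 26.9 CPM) held 9 called genes of 1547, 8 higher and 1 lower. The middle group (26.9 to 111 CPM) held 31 of 1546, 24 higher and 7 lower, and the highest (from 111 CPM) held 64 of 1547, 31 higher and 33 lower. In edgeR's fit of all 12 libraries, calls were thus mostly in the higher direction among genes of low and middle level. They were spread over both directions among abundant genes. The share of higher genes itself differed between fits, as given above. The smallest absolute log2 fold change among called genes was 1.79 in the lowest group, 0.77 in the middle and 0.43 in the highest, so that a change of moderate size was detectable only in genes with more counts.

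The called genes made up a visible share of each library. The 63 higher genes held 2.26%, 1.84% and 2.63% of the counts in iPSC-Exos + LIPUS replicates 1, 2 and 3, against 0.862%, 0.859% and 0.875% in LIPUS replicates 2, 6 and 7. The 41 lower genes held 3.29%, 3.03% and 2.88% with exosomes, against 5.21%, 5.38% and 5.50% without. These genes were chosen by this contrast, so the shares describe its size and are no further test of it. The LIPUS libraries were close to each other in both sums, and the iPSC-Exos + LIPUS libraries differed more among themselves in the sum of the higher genes.

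Among the genes called higher, ENSRNOG00000056944 had the largest log2 fold change. It was counted 54, 82 and 212 times in iPSC-Exos + LIPUS replicates 1, 2 and 3, or 38.4, 55.0 and 149 CPM, and 7, 5 and 7 times in LIPUS replicates 2, 6 and 7, or 5.43, 3.21 and 4.90 CPM. The groups did not overlap, and replicate 3 was well above the other libraries that had exosomes and ultrasound. The mean was 80.7 ± 59.4 CPM (SD, n = 3) with exosomes and 4.51 ± 1.16 CPM (SD, n = 3) without. The log2 fold change was 4.15 with a standard error of 0.68, or 17.7-fold (11.1 to 28.4 within 1 standard error), at an adjusted p of 0.00914 by the quasi-likelihood test of edgeR, adjusted by Benjamini-Hochberg. This call was lost without LIPUS replicate 2 (adjusted p 0.0506 by the same edgeR test), LIPUS replicate 6 (0.0502) or LIPUS replicate 7 (0.0583). Over 18 alternatives the log2 fold change lay between 3.35 and 4.48 and the adjusted p between 1.37e-25 and 0.0583. The lowest adjusted p came only from edgeR's test with no filter on low counts, where the log2 fold change was 4.14. Without ultrasound this gene was at 77.4, 19.3 and 46.1 CPM in iPSC-Exos replicates 2, 3 and 5 and at 7.82, 13.0 and 28.5 CPM in Control replicates 1, 4 and 9, so those groups overlapped.

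The smallest p among the other genes called higher belonged to ENSRNOG00000067650. It had 197, 149 and 165 counts in iPSC-Exos + LIPUS replicates 1, 2 and 3, or 140.1, 100.03 and 116 CPM, and 33, 55 and 57 counts in LIPUS replicates 2, 6 and 7, or 25.6, 35.3 and 39.9 CPM. Every library with exosomes was above every library without, and the replicates of each group lay near each other. The mean was 119 ± 20.2 CPM (SD, n = 3) against 33.6 ± 7.30 CPM (SD, n = 3). The log2 fold change of 1.81 had a standard error of 0.20, which is 3.51-fold (3.05 to 4.05 within 1 standard error), with an adjusted p of 0.000895 by the quasi-likelihood test of edgeR, adjusted by Benjamini-Hochberg. Without ultrasound the values were closer, at 53.7, 49.3 and 50.5 CPM in iPSC-Exos replicates 2, 3 and 5 and 37.7, 38.2 and 33.7 CPM in Control replicates 1, 4 and 9. There too the 3 libraries with exosomes were above the 3 without.

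Among the genes called lower, ENSRNOG00000042860 had the largest change. Its counts were 14, 18 and 11 in iPSC-Exos + LIPUS replicates 1, 2 and 3, or 9.96, 12.1 and 7.71 CPM, and 101, 76 and 129 in LIPUS replicates 2, 6 and 7, or 78.3, 48.8 and 90.2 CPM. All libraries with exosomes were far below all without, in means of 9.92 ± 2.19 CPM (SD, n = 3) and 72.5 ± 21.3 CPM (SD, n = 3). The log2 fold change was -2.85 with a standard error of 0.54, or 7.23-fold lower (4.98 to 10.5 within 1 standard error), at an adjusted p of 0.0159 by the quasi-likelihood test of edgeR, adjusted by Benjamini-Hochberg. This call was lost without iPSC-Exos + LIPUS replicate 3 (adjusted p 0.0951 by the same edgeR test), LIPUS replicate 2 (0.0506) or LIPUS replicate 7 (0.0738), where the log2 fold change was -2.71, -2.80 and -2.66. Over 19 alternatives the log2 fold change lay between -3.08 and -2.66 and the adjusted p between 5.09e-16 and 0.0951. The lowest adjusted p came only from edgeR's test with no filter on low counts, where the log2 fold change was -2.87. Without ultrasound the gene gave no such separation: it was at 13.0, 70.1 and 25.6 CPM in iPSC-Exos replicates 2, 3 and 5 and at 67.6, 54.8 and 26.8 CPM in Control replicates 1, 4 and 9.

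The smallest p of the whole comparison was that of ENSRNOG00000070747, which was lower with exosomes. It had 215, 226 and 179 counts in iPSC-Exos + LIPUS replicates 1, 2 and 3, or 153, 152 and 125 CPM, and 459, 766 and 555 counts in LIPUS replicates 2, 6 and 7, or 356, 492 and 388 CPM. The groups were widely separated, with means of 143 ± 15.5 CPM (SD, n = 3) and 412 ± 71.2 CPM (SD, n = 3). The log2 fold change was -1.52 with a standard error of 0.16, or 2.87-fold lower (2.57 to 3.22 within 1 standard error), at an adjusted p of 0.000895 by the quasi-likelihood test of edgeR, adjusted by Benjamini-Hochberg. Its level was 210.04, 289 and 231 CPM in iPSC-Exos replicates 2, 3 and 5 and 385, 316 and 348 CPM in Control replicates 1, 4 and 9. Those groups did not overlap either, and the libraries with exosomes were again the lower ones.

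**Figure D3:**
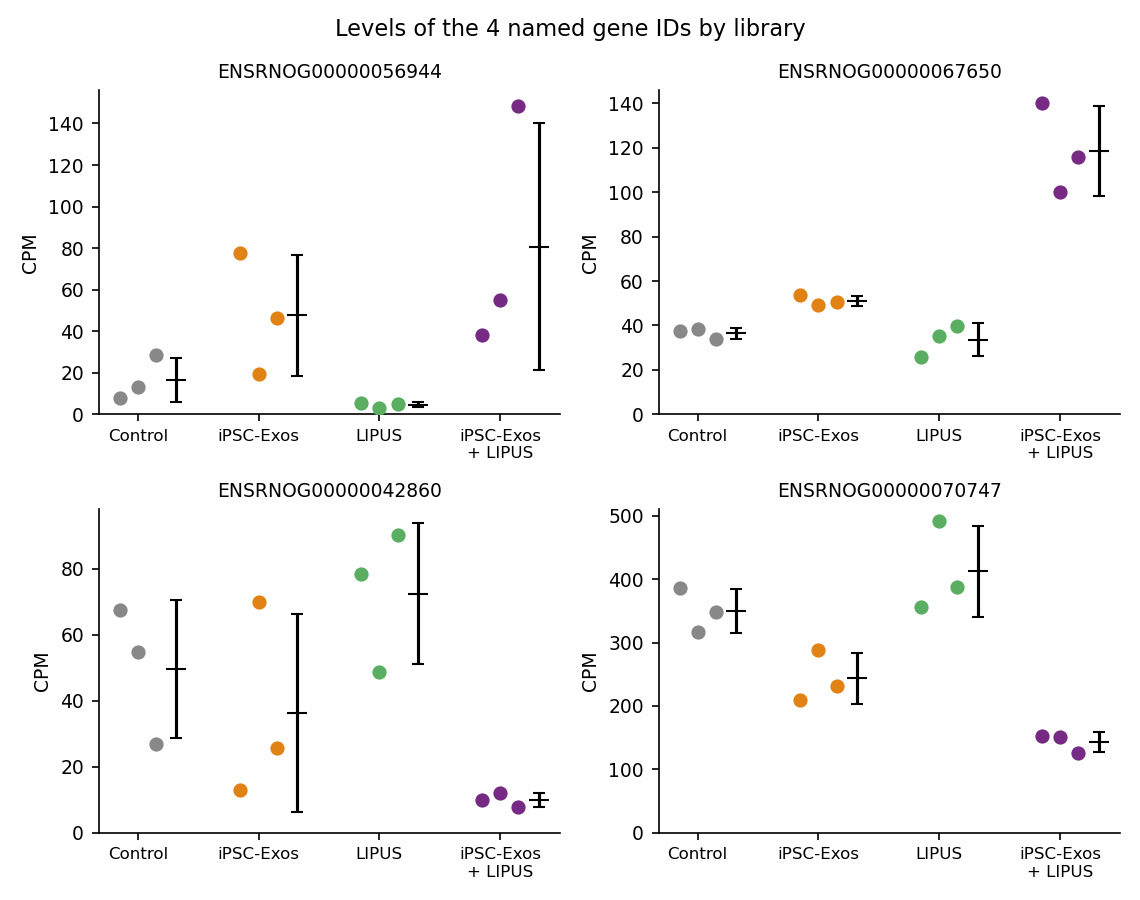
CPM of the 4 named gene IDs in each of the 12 libraries (points, 3 per group), with the group mean and SD beside them (black). With ultrasound, the 3 libraries given exosomes lie wholly above (upper panels) or wholly below (lower panels) the 3 that were not, while without ultrasound the groups overlap for ENSRNOG00000056944 and ENSRNOG00000042860.

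The comparison of iPSC-Exos with Control is likewise one of exosomes against none, and shares no library with the comparison under ultrasound, although both came from one fit with a common estimate of spread. Since the groups with ultrasound may have been sampled on another day than those without, ultrasound and sampling day cannot be told apart between these comparisons. Most genes called under ultrasound had the same sign there. This held for 99 of the 104 (95.2%), made up of 58 of the 63 higher genes and 41 of the 41 lower genes. Of all 4640 tested genes, 3091 (66.6%) had the same sign in both comparisons. That share is not matched for level, since the median of the mean CPM was 162 for the called genes and 54.5 for all tested genes. The median log2 fold change without ultrasound was 0.66 for the higher genes and -0.49 for the lower genes, against -0.01 over all tested genes. In edgeR's test without ultrasound, an unadjusted p under 0.05 was found in 516 of all tested genes (11.1%). Among the 104 it was found with the same sign in 70, 39 of them higher and 31 lower, and with the opposite sign in 0. Over all tested genes these counts were 449 and 67. Both tests used the same estimate of a gene's spread, and a small estimate lowers p in both. The share among the 104 was therefore partly favoured by their choice. The 3 iPSC-Exos libraries were wholly separate from the 3 Control libraries in 648 tested genes (14.0%). Among the 104 this was so in 58 on the same side and in 0 on the other, where over all tested genes it was so in 536 and 112.

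Few of these genes passed the adjustment in the comparison without ultrasound. By the quasi-likelihood test of edgeR, adjusted by Benjamini-Hochberg, 6 of the 4640 tested genes (0.129%) had an adjusted p under 0.05 there, and 4 of them were among the 104, all higher. DESeq2 called 68. The count of 6 was 0 without Control replicate 1 (with 757 genes at an unadjusted p under 0.05), and 1 without Control replicate 4, iPSC-Exos replicate 2 or LIPUS replicate 7. It was 3 without iPSC-Exos + LIPUS replicate 2, LIPUS replicate 2 or LIPUS replicate 6, 10 without Control replicate 9 and 15 without iPSC-Exos replicate 5.

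**Figure D4:**
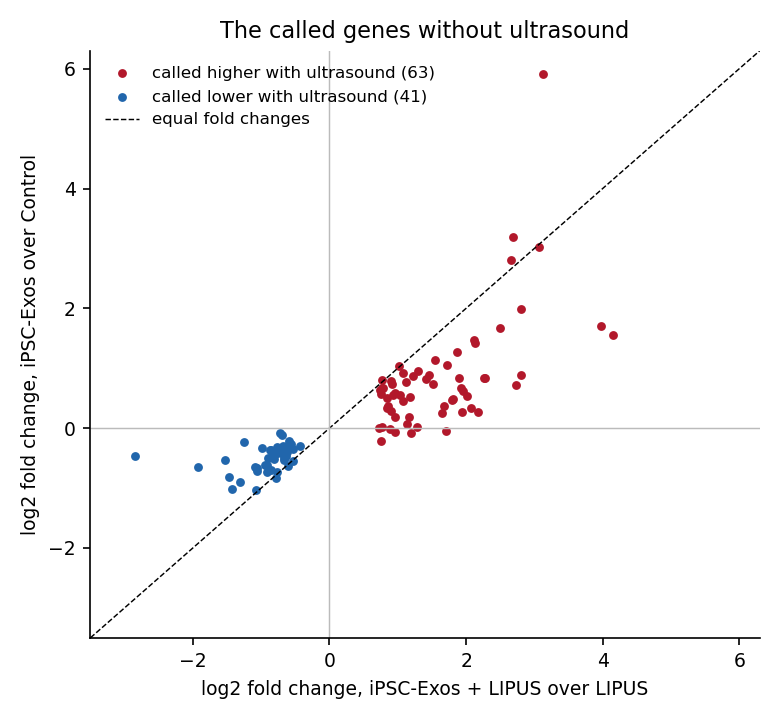
The log2 fold change of iPSC-Exos over Control against that of iPSC-Exos + LIPUS over LIPUS, for the 104 genes called in the latter, with a dashed line at equal values. Of the 63 higher genes 58 lie above 0 without ultrasound, and all 41 lower genes lie below 0.

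The called genes were also followed in single libraries. Their separation between the iPSC-Exos + LIPUS and LIPUS libraries was fixed by the choice of the genes. Only the iPSC-Exos and Control libraries add to it. Those libraries entered the same fit, and so the estimate of spread by which the genes were called. Relative to the mean of the LIPUS libraries, the 63 higher genes had a median log2 difference of 1.23, 1.18 and 1.52 in iPSC-Exos + LIPUS replicates 1, 2 and 3. The same median was 1.01, 0.63 and 0.53 for iPSC-Exos replicates 2, 3 and 5 and 0.05, 0.20 and 0.16 in Control replicates 1, 4 and 9. Each iPSC-Exos library was thus above each Control library. For the 41 lower genes the medians were -0.76, -0.73 and -0.94 in iPSC-Exos + LIPUS, -0.69, -0.40 and -0.45 in iPSC-Exos and -0.07, -0.09 and -0.07 in Control, in the same order of replicates, so that each iPSC-Exos library was below each Control library. The medians over all tested genes lay between -0.01 and 0.05 in all 12 libraries.

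One library led each group given exosomes. In iPSC-Exos + LIPUS, replicate 3 was the highest of its group in 36 of the 63 higher genes and the lowest in 23 of the 41 lower genes, where it was the highest in 1576 and the lowest in 1683 of all tested genes. In iPSC-Exos, replicate 2 was the highest of its group in 47 of the 63 and the lowest in 32 of the 41, against 1575 and 1550 of all tested genes. Without iPSC-Exos replicate 2, the sign without ultrasound was that under ultrasound in 93 of the 104 genes in place of 99, with an unadjusted p under 0.05 in edgeR's test in 45 in place of 70 and the opposite sign at such a p in 1. Over all tested genes, such a p was then found in 363 of 4813 in place of 516 of 4640, so the number fell beyond the 104 as well. The medians were then 0.52 for the higher and -0.42 for the lower genes. The direction in the comparison without ultrasound was therefore also seen in the other 2 libraries of that group, with smaller differences.

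**Figure D5:**
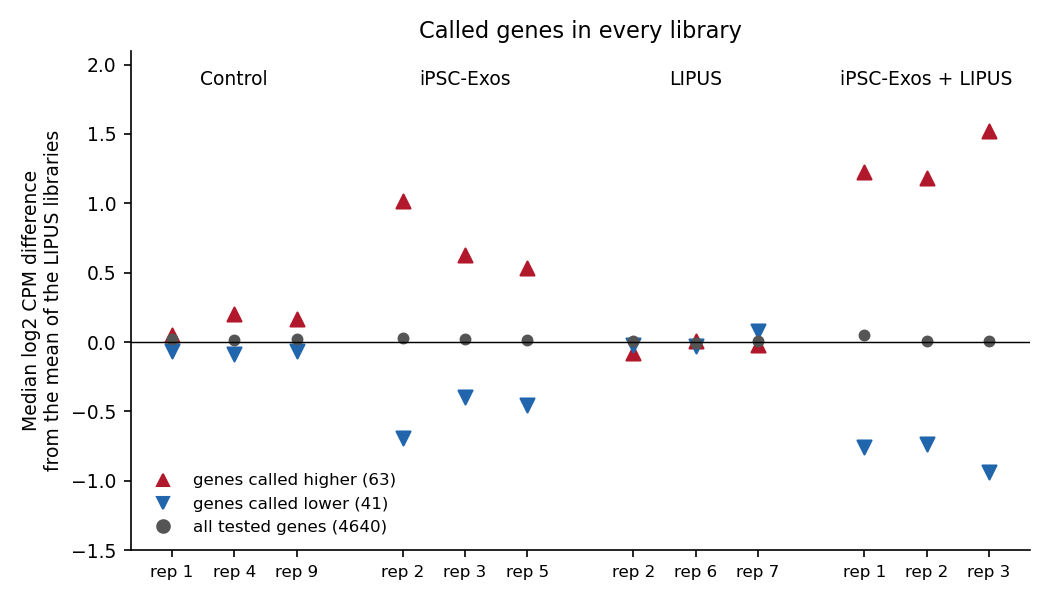
Median log2 CPM difference from the mean of the LIPUS libraries in each of the 12 libraries, for the 63 genes called higher (red), the 41 called lower (blue) and all 4640 tested genes (grey). The genes were chosen by the contrast of the groups with ultrasound, in a fit of all 12 libraries. The red points lie between 0.53 and 1.01 in iPSC-Exos and between 0.05 and 0.20 in Control.

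Whether the exosomes changed a gene by a different amount with and without ultrasound was tested by the difference of both fold changes. By the quasi-likelihood test of edgeR, adjusted by Benjamini-Hochberg, 0 of the 4640 tested genes had an adjusted p under 0.05, with 0.610 as the smallest, and DESeq2 also called 0. At an unadjusted p under 0.05, edgeR found 196 genes (4.22%) and DESeq2 221, where an even spread of p-values over 4640 genes would give 232. Without Control replicate 9 this number was 336 in edgeR's test, and without Control replicate 1 it was 300, with 0 genes called at the adjusted threshold in both. The count of 0 depended on the filter on low counts. With no filter, edgeR called 64 of 14298 genes, with 526 at an unadjusted p under 0.05. Of the 64, 60 were among the 4640 genes that had passed the filter. In edgeR's test with the filter, 45 of these 60 had an unadjusted p under 0.05. For ENSRNOG00000067650 the log2 difference was 1.33 with a standard error of 0.29 (adjusted p 0.610 in edgeR's test), and for ENSRNOG00000070747 it was -1.0 with a standard error of 0.23 (adjusted p 0.610). For ENSRNOG00000056944 it was 2.60 with a standard error of 0.92 (adjusted p 0.980 in edgeR's test), and for ENSRNOG00000042860 it was -2.40 with a standard error of 0.72 (adjusted p 0.767). These genes had been chosen for their change under ultrasound, which favours a larger change there. Whether the exosome effects differed for single genes was thus not settled with 3 libraries a group. The number called was 0 in 17 of 18 alternatives and 64 with no filter on low counts.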

How the data were processed

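The labels gave each library's group and replicate number. The members and lists were chosen with earlier results of these data known. Trimming with Trimmomatic (version 0.38) and alignment with HISAT2 (version 2.0.5) were done by the authors, who deposited whole, unnormalized counts of each gene. Rnor_6.0, SAMtools and StringTie stand in the submitters' processing notes, and the counting tool, annotation and strand setting are not given in the sources used here, so overlapping and near-identical genes may share reads. Genes were filtered with filterByExpr over the 4 groups, normalized with TMM and tested with edgeR (version 4.0.16, R version 4.3.3) by its quasi-likelihood test, in one fit of all 12 libraries with 8 residual degrees of freedom and Benjamini-Hochberg adjustment. The common biological coefficient of variation was 22.7%. Standard errors were obtained from each fold change and its F statistic. The 3 counts used as a floor cover counting error only. Replicates of the 2 groups differed by more than counting noise, with a chi-square of 5.59 to 22.3 for each degree of freedom. The values 22.3 and 20.1 were those of the pairs with iPSC-Exos + LIPUS replicate 2, and the other pairs lay between 5.59 and 10.5. In each direction, the IDs named were the called ID without overlap between groups, and with a mean of at least 10 CPM in the higher group, that changed most, and the one of smallest p among the others. Lists of cell type markers, repair genes and genes named by the study need gene names and were not analysed here. Alternatives were DESeq2 (version 1.42.0), RLE and upper quartile factors, other filters, the 6 libraries alone, the largest gene left out and each library left out. The steps were tested on simulated data.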

Additional observations from a re-analysis of the deposited data

How the results depend on the processing

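RLE factors gave 103, upper quartile factors 106, a filter of 10 or more counts in each library 111 and omission of the largest gene 103 genes for iPSC-Exos + LIPUS against LIPUS, within 1.5 times the 104 reported. With only the 6 libraries of both groups it was 217 (115 higher, 102 lower), with DESeq2 186 (99 and 87) and with no filter on low counts 280 (178 and 102) of 14298 genes. Without a single library, the count lay between 15 and 217 (12 to 110 higher, 2 to 107 lower): 68, 61 and 16 without iPSC-Exos + LIPUS replicates 1, 2 and 3, 15, 25 and 16 without LIPUS replicates 2, 6 and 7, and 217 without Control replicate 9. The first 6 of these leave a group with fewer samples, and for Control replicate 9 the cause was not tested. The count at the threshold of the study's methods was 869 with no filter on low counts and otherwise between 386 and 581. The difference between exosome effects gave 0 genes in 17 of 18 alternatives, with between 153 and 336 at an unadjusted p under 0.05 in edgeR or DESeq2 (336 without Control replicate 9 and 300 without Control replicate 1). It gave 64 with no filter on low counts (526 at an unadjusted p under 0.05), of which 60 had passed the filter, and the cause was not tested. For iPSC-Exos against Control, 68 genes were called by DESeq2 and 148 with no filter on low counts, and the count lay between 0 and 15 without a single library. Leaving out libraries of Control or iPSC-Exos other than Control replicate 9 was chosen after seeing the data, as were all alternatives for iPSC-Exos against Control. Over 18 alternatives, between 77.1% and 100% of the genes called had the same sign in iPSC-Exos against Control. Both ENSRNOG00000067650 and ENSRNOG00000070747 were called in 19 of 19 alternatives. No paired analysis was possible because the 2 groups share only 1 replicate number. Depth limits the genes of low level, where only large changes were called.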

Other observations

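Some IDs below the filter on low counts were counted in every iPSC-Exos + LIPUS library and in no LIPUS library. With at least 3 counts in each of the former and 0 in each of the latter, there were 7 such IDs, and 0 with the reverse pattern. None of the 7 passed the filter on low counts, so no test of them is given. They summed to 42, 25 and 69 counts in iPSC-Exos + LIPUS replicates 1, 2 and 3, where single IDs had between 3 and 33 counts. In iPSC-Exos replicates 2, 3 and 5 they summed to 15, 14 and 7 counts, and in Control replicates 1, 4 and 9 to 10, 14 and 3 counts. Some of them were thus counted in each Control and iPSC-Exos library as well. Their 0 counts in the LIPUS libraries were fixed by the choice of these IDs, and there 3 counts would correspond to between 2.00 and 2.40 CPM.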
